A study of Rattus norvegicus with 12 samples.

Results

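Expression of the ARF GTPases and of 3 other proteins of the secretory pathway, Arl6ip5, Ckap4 and Cd164, was followed in cultured fibroblast-like synoviocytes (FLS) given the bile acid taurochenodeoxycholic acid (TCDCA). Members were taken by gene symbol, and where several records carried a symbol the record of highest mean level was used. Of 9 symbols, 8 had a record among the 22442 gene records of the deposited table: Arf1, Arf2, Arf4, Arf5, Arf6, Arl6ip5, Ckap4 and Cd164. No record carried the symbol Arf3, so Arf3 was not analysed here. Arf4, Arl6ip5, Ckap4 and Cd164 had been picked by the study for their levels in these same 12 libraries, so their values are given as a description with no test. Arf1, Arf2, Arf5 and Arf6 were taken for their family name and were tested. The question was whether a higher Arf4 at 1 µM TCDCA was shared by the other ARFs or offset by them.

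The FLS were third-passage cells grown out of the synovium, the lining of the joint, of male SD rats with adjuvant arthritis raised by complete Freund's adjuvant. Cells of the FCA group received DMEM alone, and cells of the AT10, AT1 and AT01 groups received TCDCA at 10, 1 and 0.1 µM for 12 h, with 3 libraries in each of the 4 groups. All 4 groups came from arthritic rats, and no group of healthy FLS was part of the series. The study calls the library numbers 1, 2 and 3 repeated sets, without saying whether they came from separate cultures or animals, so p-values measure only the spread between these libraries, which may be technical.

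ARF GTPases are small switches of the Golgi, endosomes and plasma membrane. Loaded with GTP by exchange factors (GEFs), they insert into the membrane and recruit coats such as COPI, AP-1 and the GGA adaptors, and GTPase-activating proteins (GAPs) turn them off. Arf1, Arf2 and Arf3 form class I, Arf4 and Arf5 form class II, and Arf6, which works at the plasma membrane and in endocytic recycling, forms class III. Arl6ip5 is an endoplasmic reticulum (ER) membrane protein of the PRA1 family that binds the ARF-like protein Arl6. Ckap4, also called CLIMP-63, shapes ER sheets and links them to microtubules. Cd164, or endolyn, is a sialomucin of endosomes, lysosomes and the cell surface. In fibroblasts the same route carries collagen and other matrix proteins out of the cell.

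Levels are FPKM, fragments scaled to the length of the transcript and to the fragments mapped in the library. Being per length, they are set side by side between genes here. Such comparisons also rest on how reads were assigned to each record, which was not checked. The summed FPKM of a library lay between 284210 and 309696, and from 11471 to 11679 records reached 1 FPKM in a library. The read counts behind the values were not analysed here, so the depth of each value and its counting error are unknown. Of 9 FLS markers (Vim, Col1a1, Col1a2, Thy1, Pdpn, Cdh11, Pdgfrb, Prg4 and Fap), 8 had a record and all 8 had a mean of at least 1 FPKM. Their summed level ran from 3976 to 4577 FPKM in FCA, 3002 to 4281 in AT10, 3985 to 4106 in AT1 and 3639 to 4153 in AT01. Of 7 macrophage markers, 4 had a record and only Cd14 reached a mean of 1 FPKM, with a summed level of at most 19.1 FPKM in any library. Of 6 endothelial markers, 5 had a record and none reached a mean of 1 FPKM. In bulk RNA, fewer cells of a type and less RNA per cell cannot be told apart.

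Arf4 was the ARF whose level differed most between libraries. Its record, assembled from a single transcript, read 89.4, 302 and 106 FPKM in FCA. In AT10 it read 94.1, 115 and 105 FPKM, in AT1 326, 221 and 344 FPKM, and in AT01 87.3, 93.3 and 86.3 FPKM. All 3 AT1 libraries and FCA replicate 2 were high, and the other 8 libraries lay between 86.3 and 115 FPKM. Group means were 166 ± 118 FPKM in FCA, 105 ± 10.7 in AT10, 297 ± 66.6 in AT1 and 89.0 ± 3.74 in AT01 (SD, n = 3). AT1 overlapped FCA through FCA replicate 2 alone, and it overlapped neither AT10 nor AT01.

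The AT1 mean was 1.79 times the FCA mean and 3.34 times the AT01 mean. On the log2(FPKM + 1) scale, the mean difference of AT1 from FCA was 1.03, and without FCA replicate 2 it was 1.57. FCA replicates 1 and 3 averaged 97.5 FPKM, and FCA replicate 2 stood at 3.10 times that. The same library moved the other doses. Arf4 in AT10 lay at -0.44 from FCA with it and at 0.10 without it, and in AT01 at -0.67 with it and at -0.13 without it. A further record of the name Arf4 read 3.05 FPKM in AT01 replicate 1 and 0 in the other libraries.

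**Figure D1:**
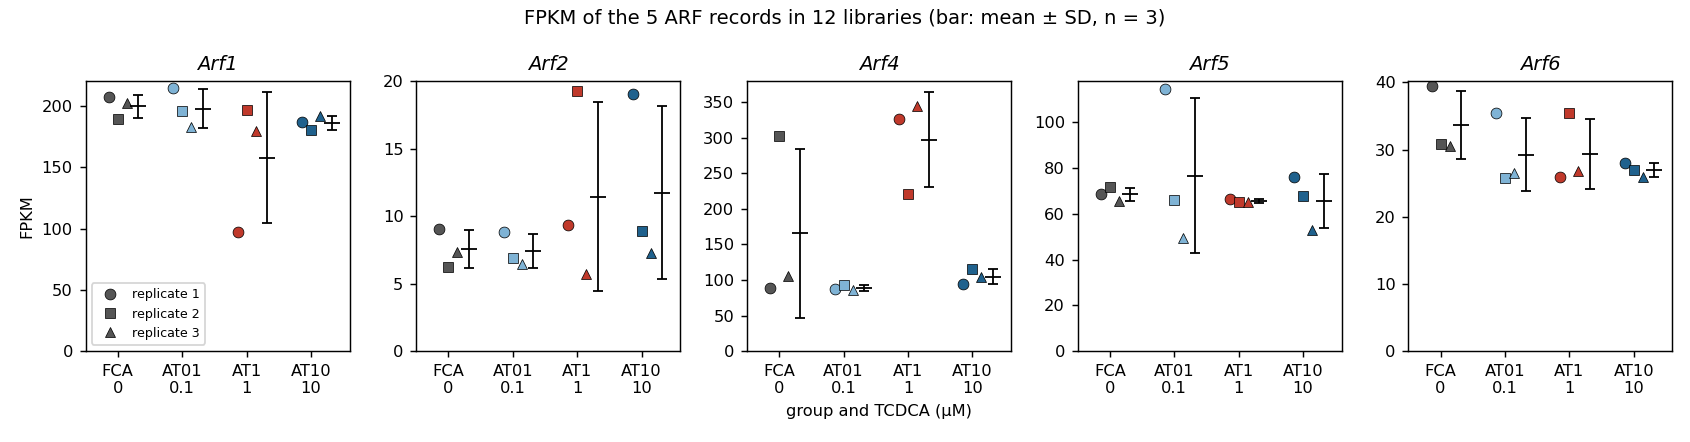
FPKM of the 5 ARF records in each library (points), by group on the x axis, with the group mean and SD (n = 3). Arf4 sits at 221 to 344 FPKM in the 3 AT1 libraries and at 302 in FCA replicate 2, against 86.3 to 115 FPKM in the other 8.

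Arf1 is the most used ARF of the Golgi and the one best known for recruiting COPI. It read 207, 189.6 and 203 FPKM in FCA and 187, 180.5 and 192 in AT10. It read 97.1, 197 and 179.8 FPKM in AT1, and 215, 196 and 183 in AT01. One library stood apart, AT1 replicate 1, at 0.486 times the FCA mean. In limma, with Benjamini-Hochberg adjustment over 11611 records, Arf1 in AT1 lay at -0.40 from FCA (log2 scale, SE 0.27, 95% interval -1.08 to 0.28, adjusted p = 0.582). Without AT1 replicate 1 that difference was -0.09, so 1 library set most of its size. The differences were -0.10 in AT10 (SE 0.06, adjusted p = 0.532) and -0.02 in AT01 (SE 0.08, adjusted p = 0.972).

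Arf5, the class II partner of Arf4, kept a narrow range in AT1. It read 68.5, 71.5 and 65.7 FPKM in FCA and 66.6, 65.1 and 65.1 in AT1. Its difference in AT1 was -0.06 on the log2 scale (limma SE 0.05, 95% interval -0.19 to 0.07, adjusted p = 0.647). In AT10 it read 76.1, 67.7 and 53.0 FPKM, and in AT01 114, 65.9 and 49.5. Those groups spread on both sides of FCA, with differences of -0.08 (SE 0.14, adjusted p = 0.825) and 0.07 (SE 0.30, adjusted p = 0.966). Without AT01 replicate 1, the library at 114 FPKM, the AT01 difference was -0.26.

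Arf6 read 39.4, 30.9 and 30.5 FPKM in FCA, 28.0, 27.0 and 25.9 in AT10, 26.0, 35.4 and 26.8 in AT1, and 35.4, 25.7 and 26.5 in AT01. All 3 AT10 libraries lay below all 3 FCA libraries, which was the case for 9.18% of all records tested. The AT10 difference was -0.30 (limma SE 0.11, 95% interval -0.58 to -0.02, unadjusted p = 0.0401) and it did not pass adjustment (adjusted p = 0.401). In AT1 the difference was -0.19 (SE 0.16, 95% interval -0.59 to 0.20, adjusted p = 0.639), and in AT01 it was -0.20 (SE 0.16, adjusted p = 0.823). Without FCA replicate 1, the library at 39.4 FPKM, the differences were -0.18 in AT10 (unadjusted p = 0.0515), -0.07 in AT1 and -0.08 in AT01.

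Arf2, a class I ARF that rodents have beside Arf1 and Arf3, was the lowest of the family. It read 9.03, 6.24 and 7.38 FPKM in FCA, 19.1, 8.92 and 7.27 in AT10, 9.35, 19.3 and 5.73 in AT1, and 8.82, 6.94 and 6.46 in AT01. Single libraries near 19 FPKM, AT10 replicate 1 and AT1 replicate 2, set the 2 higher means. The AT1 difference was 0.40 (limma SE 0.41, 95% interval -0.61 to 1.42, adjusted p = 0.693), and without AT1 replicate 2 it was -0.02. The AT10 difference was 0.48 (SE 0.35, adjusted p = 0.605), and without AT10 replicate 1 it was 0.10. In AT01 it was -0.02 (SE 0.16, adjusted p = 0.984).

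None of the 4 tested ARFs passed an adjusted p of 0.05 against FCA in limma. Of all tested records, 0.172% passed in AT10, and 0.0947% in AT1 as well as in AT01. At an unadjusted p under 0.05 the count was 1 of 4 in AT10, which is Arf6, and 0 in AT1 and AT01, against 11.9, 11 and 6.6% of all tested records. An F test without moderation of the variance and with a term for the library, as Ballgown makes, also called 0 of them. Over the 4 groups together, where 0.0431% of all tested records passed, the limma F test gave adjusted p of 0.708 for Arf1, 0.797 for Arf2, 0.970 for Arf5 and 0.735 for Arf6. The upper ends of the 95% intervals in AT1 were 0.28 for Arf1, 0.07 for Arf5, 0.20 for Arf6 and 1.42 for Arf2. The lower ends were -1.08 for Arf1, -0.19 for Arf5, -0.59 for Arf6 and -0.61 for Arf2. So the interval of Arf2 left room for a 2-fold rise on this scale, and that of Arf1 for a 2-fold fall.

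**Figure D2:**
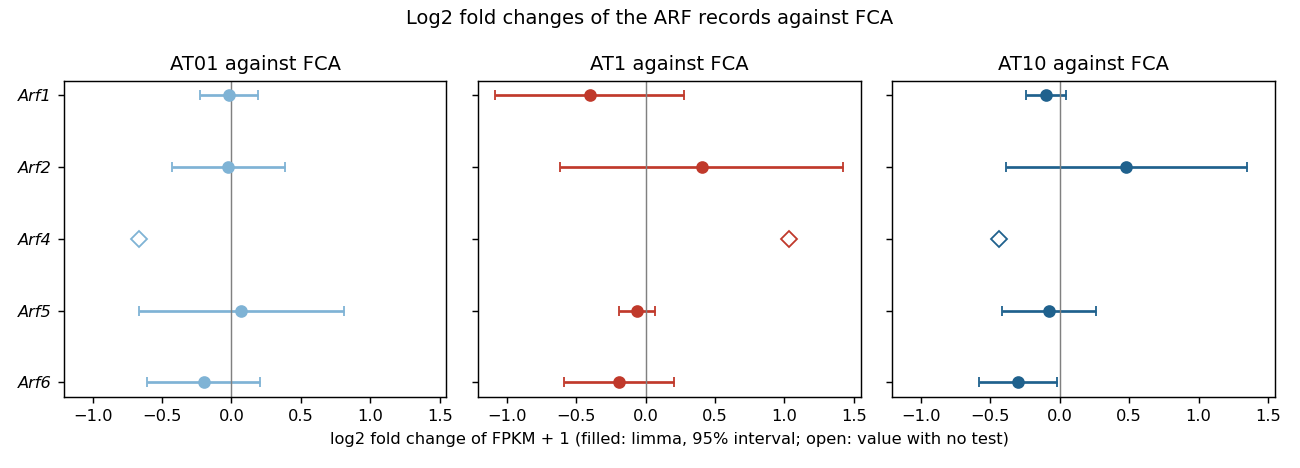
Log2(FPKM + 1) difference from FCA of each ARF record in AT10, AT1 and AT01, with 95% intervals from limma (n = 3 per group) for the 4 ARFs that were tested. The AT1 interval of Arf5 runs from -0.19 to 0.07 and that of Arf2 from -0.61 to 1.42, and Arf4 stands at 1.03 with no interval since it was picked for its level.

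Set in order of mean level, FCA, AT10 and AT01 read Arf1, Arf4, Arf5, Arf6 and Arf2 from high to low. In AT1 Arf4 stood first and Arf1 after it, and the rest kept their places. Neighbours in the order overlapped for Arf1 and Arf4 in FCA and for Arf4 and Arf5 in AT01. Arf4 read higher than Arf1 in 4 libraries, by 1.59 times in FCA replicate 2 and by 3.35, 1.12 and 1.91 times in AT1 replicates 1, 2 and 3. In the other 8 libraries the median ratio of Arf4 to Arf1 was 0.489.

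The summed ARF level was highest in AT1. Over the 5 records the summed level was 475 ± 108 FPKM in FCA, 395 ± 11.4 in AT10, 561 ± 52.7 in AT1 and 400.1 ± 55.5 in AT01 (SD, n = 3). AT1 was 1.18 times FCA, a difference of 85.9 FPKM, smaller than the SD of FCA. Arf4 alone differed by 131 FPKM between these means. Since Arf4 is part of the sum, this is a description and was not tested.

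Without Arf4 the summed means were 309.6 ± 13.4 FPKM (FCA), 290.6 ± 17.1 (AT10), 264 ± 59.8 (AT1) and 311 ± 55.8 (AT01). The AT1 libraries summed to 199, 316 and 277 FPKM and the FCA libraries to 324, 298 and 306, so 2 AT1 libraries lay below all 3 FCA libraries and 1 lay within their range. The AT1 mean was lower by 45.3 FPKM, of which Arf1 made 42.1, and the low Arf1 value came from AT1 replicate 1. By mean FPKM, 3 of the 4 other ARFs were lower in AT1 than in FCA and Arf2 was higher. Arf4 made up 62.1, 41.1 and 55.4% of the summed level in AT1 and 50.3% in FCA replicate 2, against 19.0 to 28.9% in the other 8 libraries.

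**Figure D3:**
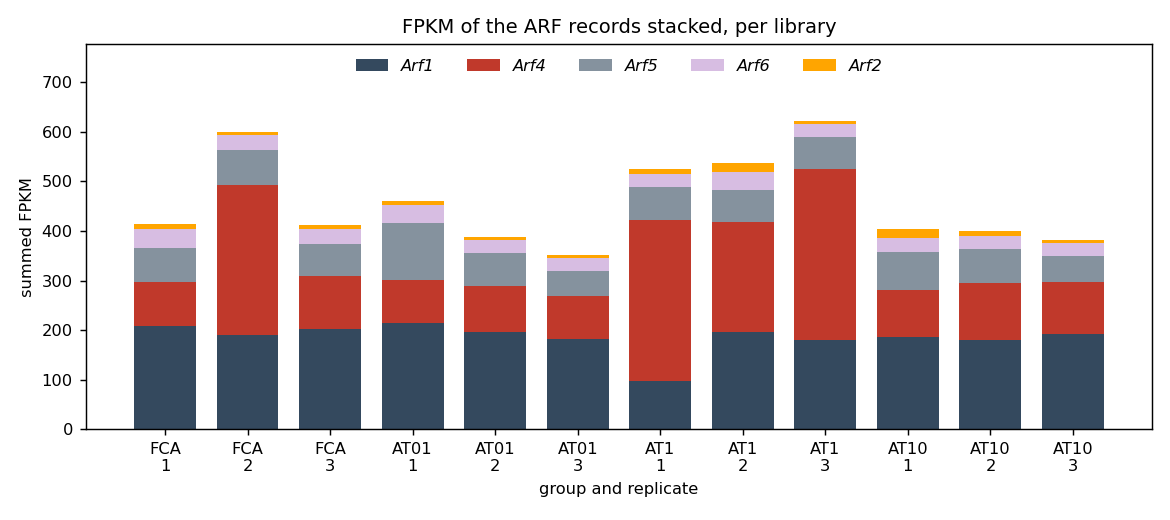
Stacked FPKM of Arf1, Arf2, Arf4, Arf5 and Arf6 in each of the 12 libraries (bars start at 0). The sum is highest in AT1 replicate 3 (622 FPKM) and FCA replicate 2 (600.3 FPKM), both through the Arf4 segment.

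The start regions of these genes were read because Arf4 is a known target of Creb3, a factor of the Golgi stress response that belongs to the CREB3 family. The windows, 250 bases before to 50 after the annotated start, are from RefSeq (build GRCr8), and all 9 symbols had one. The letters ACGTGGC, searched on both strands, stood in 5 of 9 windows against 2.3% of 33469 windows of all genes. The longer TGACGTGG, which overlaps it, stood in 3 of 9 (Arf1, Arf4 and Ckap4) against 0.595%, and the cAMP response element TGACGTCA in 0 of 9 against 1.83%. The windows of all genes were not matched to the members in base content or expression, so no enrichment is read from these shares. The gene strand is shown 5′ to 3′ with the ACGTGGC letters in capitals, except for Arf5, where the strand that carries the letters is shown.
Arf4: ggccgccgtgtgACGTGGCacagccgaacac
Arf1: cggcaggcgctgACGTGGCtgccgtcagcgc
Arf5: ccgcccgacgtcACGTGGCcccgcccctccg
Arf3: agaACGTGGCaaggccccggag
Ckap4: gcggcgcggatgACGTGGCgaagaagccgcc

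These stretches lie at chr16:1903417-1903447 (plus strand) for Arf4, chr10:44514004-44514034 (minus) for Arf1, chr4:58003903-58003933 (minus) for Arf5, chr7:131791208-131791229 (minus) for Arf3 and chr7:21118363-21118393 (plus) for Ckap4. The letters begin 7 bases before the start of Arf4, 28 before that of Arf1, 56 before that of Arf5, 247 before that of Arf3 and 152 before that of Ckap4. In the Ckap4 window a reading frame opens upstream of the letters and runs 97 codons to the end of the window. The letters lie within its span and may be coding sequence, and the counts of 5 and 3 of 9 include them. The windows of Arf2, Arf6, Arl6ip5 and Cd164 did not hold the letters. A match describes the letters only, and binding was not measured. The 250 bases before the Arf4 start (chr16:1903186-1903435) end in the longer TGACGTGGC, in capitals.
Arf4: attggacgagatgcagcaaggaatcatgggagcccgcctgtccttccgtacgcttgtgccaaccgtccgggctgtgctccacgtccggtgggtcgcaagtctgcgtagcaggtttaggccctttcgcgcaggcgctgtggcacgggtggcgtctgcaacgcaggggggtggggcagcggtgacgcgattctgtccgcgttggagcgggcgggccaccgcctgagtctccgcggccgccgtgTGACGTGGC

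Arl6ip5 was low in the 3 AT1 libraries, where Arf4 was high. It read 62.0, 77.2 and 93.6 FPKM in FCA, 91.1, 71.3 and 97.0 in AT10, 48.2, 42.8 and 41.6 in AT1, and 105, 104 and 91.6 in AT01. The AT1 libraries lay below every library of the other 3 groups. In FCA replicate 2, where Arf4 was high too, Arl6ip5 read 77.2 FPKM, between the other FCA libraries. Against FCA, groups did not overlap downward in 10% of all tested records in AT1, and nothing is read from Arl6ip5 being one of them, since it was picked for its levels. The mean in AT1 was 44.2 ± 3.48 FPKM against 77.6 ± 15.8 in FCA (SD, n = 3), 0.570 times as high, and -0.78 on the log2 scale. AT10 lay at 0.16 and AT01 at 0.38 from FCA, and both overlapped it. Across the 12 libraries, which share these groups, Pearson's r of Arf4 with Arl6ip5 was -0.77, with Arf1 -0.55, with Cd164 -0.48 and with Ckap4 0.05. Since Arf4, Arl6ip5, Cd164 and Ckap4 were picked for their levels, these r are a description only.

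Cd164 was high in AT10. It read 104, 112 and 107 FPKM there, and 82.5, 38.8 and 86.1 in FCA. In AT1 it read 28.9, 85.7 and 23.7 FPKM, and in AT01 41.0, 41.5 and 30.2. Every AT10 library lay above the 9 others, with a mean of 108 ± 3.95 FPKM, 1.56 times that of FCA, 2.34 times that of AT1 and 2.87 times that of AT01. The log2 differences from FCA were 0.72 in AT10, -0.73 in AT1 and -0.79 in AT01. In AT10, 10.7% of all tested records did not overlap FCA upward. FCA replicate 2 and AT1 replicate 2 each went with the opposite level of their group. Without AT1 replicate 2 the AT1 difference was -1.28, and without AT1 replicate 3 it was -0.38. Without FCA replicate 2 the AT10 difference was 0.35.

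Ckap4 had no single level within AT1 or AT01. It read 11.7, 2.88 and 1.26 FPKM in FCA, 1.02, 1.42 and 11.7 in AT10, 1.41, 145 and 134 in AT1, and 152, 148 and 5.51 in AT01. The highest library was 149 times the lowest. Both AT1 and AT01 held libraries of the high and of the low level, so their means of 93.5 ± 79.9 and 102 ± 83.4 FPKM describe no library. The log2 differences from FCA were -0.28 in AT10, 2.91 in AT1 and 3.46 in AT01, and the AT10 value turned to 0.42 without FCA replicate 1, 0.21 without AT10 replicate 1 and 0.08 without AT10 replicate 2. Ckap4 was among the 4.52% of tested records whose values fell at 2 separate levels, meaning that sorted log2(FPKM + 1) values left a gap of 1 or more that exceeded the spread within each level, and that each level held 2 libraries or more. The other members did not meet this. The widest gap of Arf4 was 0.93, between 115 and 221 FPKM with 8 libraries below and 4 above, and that of Cd164 was 0.97, between 41.5 and 82.5 FPKM with 6 on each side.

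**Figure D4:**
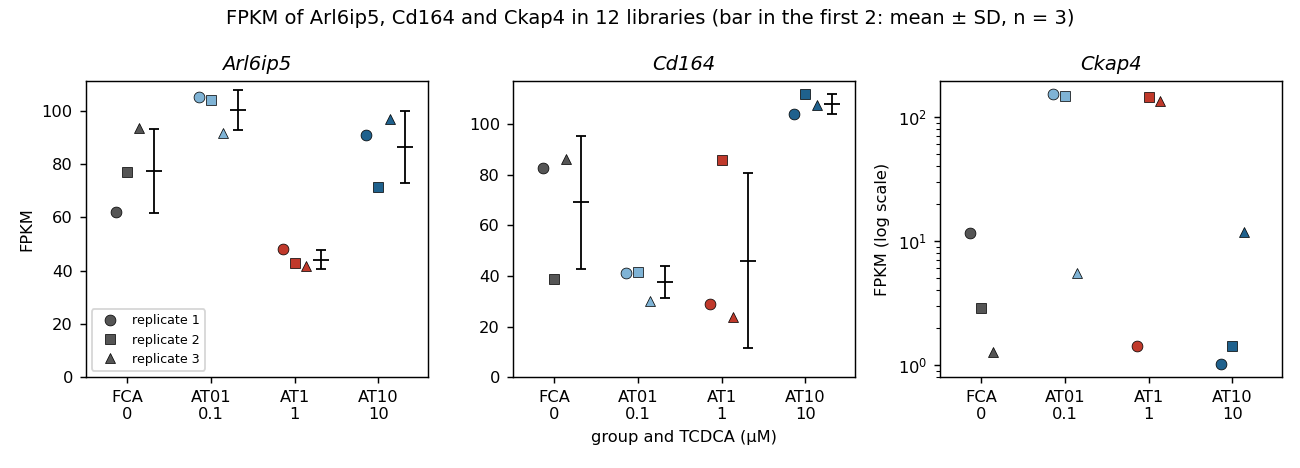
FPKM of Arl6ip5, Cd164 and Ckap4 in each library (points), by group, with mean and SD (n = 3) in the first 2 panels. Arl6ip5 is low in the 3 AT1 libraries (41.6 to 48.2 FPKM), Cd164 is high in the 3 AT10 libraries (104 to 112 FPKM), and Ckap4 takes values of 134 to 152 FPKM in 4 libraries of AT1 and AT01, of 1.41 and 5.51 in their other libraries and of 1.02 to 11.7 in FCA and AT10.

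The ratio of highest to lowest library set the picked genes and the other ARFs apart only in part. It was 3.99 for Arf4, 2.53 for Arl6ip5 and 4.72 for Cd164, against 2.21 for Arf1, 3.36 for Arf2, 2.31 for Arf5 and 1.53 for Arf6. By the SD of log2(FPKM + 1) over the 12 libraries, Arf4 stood at the 95.1st percentile of all tested records, Ckap4 at the 99.8th, Cd164 at the 95.25th, Arl6ip5 at the 88.4th, Arf2 at the 89.7th, Arf1 at the 74.3rd, Arf5 at the 73.4th and Arf6 at the 57.7th. Since the picked genes were chosen for their levels in these same libraries, their spread is a description only.

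The records most like each picked gene were sought among the 4361 named records that averaged 10 FPKM or more, by Pearson's r of log2(FPKM + 1) over the 12 libraries. Those named are the extremes of many r over few libraries, and no relation between the genes was tested. The most like Arf4 was Oaf (r = 0.84), at 181 to 186 FPKM in the 3 AT1 libraries and 224 in FCA replicate 2, but also at 164 in AT01 replicate 2. Oaf read 44.5 to 55.0 FPKM in the other 7 libraries. Next came Mt-cyb (r = 0.79), the mitochondrial cytochrome b, listed at 0 in 7 libraries and at up to 2543 FPKM in AT1 replicate 3. The lowest was AABR07026797.1 (r = -0.81), listed at 0 in the 3 AT1 libraries, FCA replicate 2 and AT10 replicate 1.

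For Arl6ip5 the highest were Cwc15 (r = 0.81), a splicing protein, and Pfdn6 (r = 0.79), a prefoldin subunit, and the lowest was Srsf9 (r = -0.81), a splicing factor at 30.2 to 35.5 FPKM in AT1 but also at 29.4 in AT10 replicate 2. For Cd164 they were Fst (r = 0.84), the activin binder follistatin, and Slc20a2 (r = 0.82), a phosphate transporter, and the lowest was Olfml2b (r = -0.81). For Ckap4 they were Cnn3 (r = 0.89), an actin-binding calponin, and Hsd17b10 (r = 0.88), a mitochondrial dehydrogenase, and the lowest was Orc1 (r = -0.85), of the origin recognition complex. Cnn3 ran from 67.7 to 76.4 FPKM in the 4 libraries of high Ckap4, and also read 72.4 and 61.8 in FCA replicate 1 and AT10 replicate 3.

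The genes that act with the ARFs were taken as 10 lists of 172 names: ARF GEFs, ARF GAPs, ARF-like and SAR proteins, the COPI coat, trans-Golgi effectors, the COPII coat, cargo receptors, ER-shaping and PRA1 proteins, endolysosomal membrane proteins, and Creb3 with its relatives. A record was found for 162 names and 137 passed the filter of a mean of 1 FPKM. In limma 0 of the 137 passed an adjusted p of 0.05 in any of the 3 comparisons, and the F test without moderation called 0 as well. The unadjusted p was under 0.05 for 17 of 137 at 10 µM, 10 at 1 µM and 5 at 0.1 µM, against 11.9, 11 and 6.6% of all tested records.

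Groups did not overlap FCA for 30 of 137 in AT10 (21.9%), 20 in AT1 (14.6%) and 18 in AT01 (13.1%), against 19.9, 19.9 and 14% of all tested records. These shares were near the background. In AT10, 14 were higher and 16 lower (10.7 and 9.18% of all tested). In AT1, 13 were higher and 7 lower (9.87 and 10% of all), and in AT01 8 were higher and 10 lower (5.97 and 8.06% of all). On the log2 scale the 137 had a median difference of -0.03 (AT10), 0.01 (AT1) and -0.03 (AT01), beside -0.01, 0.02 and 0.00 over all tested records. Each dose was set against the same FCA libraries.

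**Figure D5:**
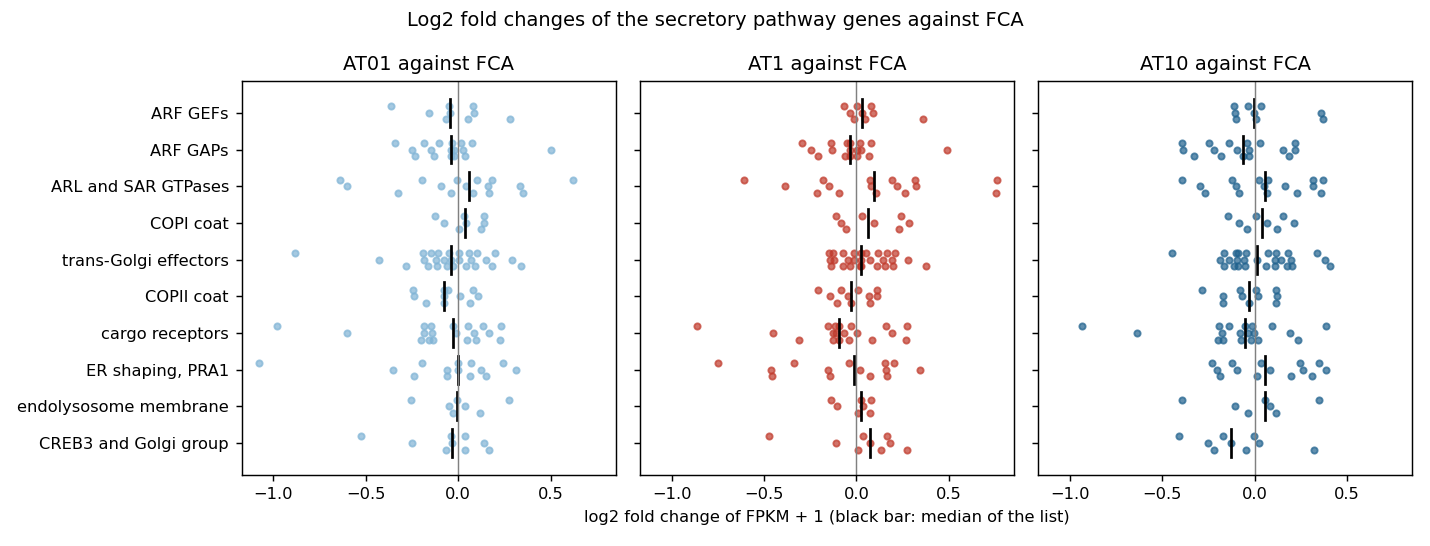
Log2(FPKM + 1) difference from FCA of the genes of each of the 10 lists in AT10, AT1 and AT01, 1 point per gene, 137 genes in all. The medians of the lists lie between -0.13 and 0.09 and no gene passed an adjusted p of 0.05.

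The 9 GEFs tested, which load ARFs with GTP, had median differences of 0.00, 0.03 and -0.04 in AT10, AT1 and AT01, with 0 called and single genes between -0.36 and 0.37. The highest of them were the cytohesin Cyth2, at 19.5 to 21.3 FPKM in FCA and 19.1 to 21.4 in AT1 (difference -0.03, limma adjusted p = 0.853), and Iqsec1, which acts on Arf6 (0.00 in AT1, adjusted p = 0.998). The 17 GAPs had medians of -0.07, -0.04 and -0.04, with 0 called and single genes between -0.39 and 0.50. Below FCA without overlap lay 5 in AT10, 2 in AT1 and 5 in AT01, against 9.18, 10 and 8.06% of all tested records. Above it lay 0 in each, against 10.7, 9.87 and 5.97%. The unadjusted p was under 0.05 for 2, 1 and 1 of them, against 11.9, 11 and 6.6% of all. The highest in mean level, Arfgap3 of the Golgi, read 31.6 to 33.7 FPKM in FCA and 31.8 to 32.8 in AT1. Asap1 differed by -0.13 in AT1 (adjusted p = 0.782).

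Among the coats that ARFs recruit, the 8 COPI subunits had medians of 0.04, 0.06 and 0.04 in AT10, AT1 and AT01, with 0 called. Of the 8, 1 lay above FCA without overlap in AT10, 3 in AT1 and 0 in AT01, against 10.7, 9.87 and 5.97% of all tested records. An unadjusted p under 0.05 was found for 0, 2 and 0 of them, against 11.9, 11 and 6.6% of all. The highest in mean level were Arcn1, delta-COP (0.10 in AT1, limma adjusted p = 0.601), and Copz1, zeta-COP (-0.08, adjusted p = 0.591). Single COPI subunits lay between -0.11 and 0.28 in AT1. The 27 trans-Golgi effectors tested, with AP-1, AP-3, AP-4 and GGA subunits, had medians of 0.01, 0.02 and -0.04. Above FCA without overlap lay 6 in AT10, 4 in AT1 and 4 in AT01, against 10.7, 9.87 and 5.97% of all tested records. Below it lay 0, 1 and 0, against 9.18, 10 and 8.06%. The unadjusted p was under 0.05 for 2, 0 and 0 of them. Ap1s1, an AP-1 subunit, was spread over the 12 libraries from 42.2 FPKM in AT01 replicate 3 to 112 in FCA replicate 2, and Ap1m1 differed by at most 0.07 in any dose. The 16 ARF-like and SAR proteins had medians of 0.06, 0.09 and 0.06. Highest in mean level were Arl1, of the trans-Golgi, and Sar1b, which starts the COPII coat. They differed by 0.10 and 0.26 in AT1 (limma adjusted p = 0.716 and 0.643), where single genes of the list lay between -0.61 and 0.76.

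On the ER exit side, the 11 COPII genes tested had medians of -0.03, -0.03 and -0.08. Sec31a, of the outer cage, read 69.9 to 77.2 FPKM in FCA, 62.4 to 66.0 in AT1 and 60.3 to 64.4 in AT01. AT1 and AT01 each lay below FCA without overlap, with differences of -0.21 and -0.24 that did not pass adjustment (limma adjusted p = 0.420 and 0.692). Sec31a was the 1 of the 11 genes to do so in each, against 10 and 8.06% of all tested records. In AT10 it read 59.0 to 70.7 FPKM, overlapping FCA, at -0.17 (adjusted p = 0.492). Sec24d differed by -0.05 in AT1. The 19 cargo receptors had medians of -0.05, -0.10 and -0.03, with 0 called and single genes between -0.98 and 0.39. Below FCA without overlap lay 4 in AT10, 2 in AT1 and 1 in AT01, against 9.18, 10 and 8.06% of all tested records. Above it lay 0, 1 and 0, against 10.7, 9.87 and 5.97%. The highest in mean level were Lman2 and Kdelr2, the lectin and the KDEL receptor that cycle between ER and Golgi. Both were among those below FCA in AT10 and AT1, and Kdelr2 was in AT01 too. Lman2 differed by -0.17 and -0.15 (adjusted p = 0.383 and 0.428), and Kdelr2 by -0.07 and -0.13 (adjusted p = 0.590 and 0.428).

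Nearest in kind to Arl6ip5 and Ckap4 are the 14 ER-shaping and PRA1 proteins tested, with medians of 0.06, -0.01 and 0.00. Reep5 read near 60 FPKM in FCA replicate 1 (62.9) and AT1 replicates 1 and 3 (59.1 and 57.1), 77.3 in AT10 replicate 1, and 124 to 140.3 in the other 8 libraries. Rabac1, a PRA1 protein, differed by -0.16 in AT1 (limma adjusted p = 0.572). Arl6ip1, named here after its values were seen, read 44.0 to 49.1 FPKM in FCA and 43.6, 16.1 and 14.3 in AT01. Its AT01 difference was -1.08 (limma adjusted p = 0.720), and without AT01 replicate 1 it was -1.57 and passed (adjusted p = 0.0184). That fit drops the 1 AT01 library that read near FCA. The gene was named for its values, so nothing is read from that pass. Over all records, 13 to 30 were called in AT01 with a library left out. Arl6ip1 was also among the 4.52% of tested records at 2 separate levels. AT1 replicate 2 also read 18.6 FPKM. The 7 endolysosomal membrane genes tested, which are set beside Cd164, had medians of 0.06, 0.02 and -0.01. Their highest in mean level, Cd63 and Laptm4a, differed by at most 0.08 in AT10, where single genes lay between -0.40 and 0.35.

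The 9 genes of the Creb3 list tested had medians of -0.13, 0.07 and -0.04. Creb3 read 82.6, 75.8 and 75.8 FPKM in FCA, 52.8, 52.2 and 72.9 in AT10, 80.8, 82.1 and 76.8 in AT1, and 78.6, 81.2 and 68.6 in AT01. Only in AT10 did all 3 libraries lie below every FCA library, at -0.41 (limma SE 0.14, unadjusted p = 0.0303, adjusted p = 0.373). Of the 9 genes, 3 lay below FCA without overlap in AT10 and 1 above, against 9.18 and 10.7% of all tested records. There the unadjusted p was under 0.05 for 3 of the 9, against 11.9% of all. In AT1 Creb3 differed by 0.03 (SE 0.06, adjusted p = 0.825). Serpinh1, the collagen chaperone Hsp47, differed by -0.11 in AT1 (adjusted p = 0.532).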

How the data were processed

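Poly(A) RNA of rat FLS was sequenced in 12 libraries. The authors aligned reads with HISAT2, estimated FPKM with StringTie and tested differences with Ballgown. The deposited table gives FPKM, rounded to 2 decimals, for each of 22442 gene records. The submitters' processing notes also name cutadapt and edgeR. The genome build was not given in the sources used here, and the deposited table holds no read counts, so no depth or counting interval is given.

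The 11611 records averaging 1 FPKM or more were tested on log2(FPKM + 1) by moderated linear models with a variance trend (limma 3.58.1, R 4.3.3), 2 groups at a time, for 3 comparisons with FCA, and by an F test over 4 groups. Adjustment was Benjamini-Hochberg over all tested records. The fits were checked on simulated data. Differences on the log2(FPKM + 1) scale understate changes of low genes. Other values came from Python 3.11.15 with NumPy 2.4.6, pandas 2.3.3 and SciPy 1.17.1, and figures from Matplotlib 3.10.9.

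Members, gene lists and tests were chosen with earlier results of these data known. Text names the members, the 2 highest and 1 lowest records by r with each picked gene, list genes with an adjusted p under 0.05, and the 2 genes of highest mean per list. Arl6ip1 was added after its values were seen. Alternatives were no filter, a filter at 10 FPKM, a pseudocount of 0.1, median-of-ratios scaling, records summed by name, replicate number as a block, 1 fit over 12 libraries, a Ballgown-like F test, and each library left out. Promoter windows were RefSeq's (GRCr8).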

Additional observations from a re-analysis of the deposited data

How the results depend on the processing

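None of the tested ARFs reached an adjusted p under 0.05 under any alternative. Of 333 member differences under alternatives, 14 turned sign, 12 of them when a library was left out. The other turns were those of Arf5, to 0.0072 in AT10 and 0.0101 in AT1 under the Ballgown-like F test. That test keeps the log2(FPKM + 1) scale but adds a term for each library, the sum of its lower values. Lowest and highest values with a library left out, for those that turned, were -0.77 and 0.10 (Arf4 in AT10), -1.12 and 0.42 (Ckap4 in AT10), -0.19 and 0.0664 (Arf5 in AT10), -0.022 and 0.77 (Arf2 in AT1), -0.0765 and 0.0387 (Arf1 in AT01), -0.14 and 0.10 (Arf2 in AT01), and -0.26 and 0.34 (Arf5 in AT01). Arf4 in AT1 kept its direction, at 0.70 to 1.57 with a library left out (lowest without FCA replicate 1, highest without FCA replicate 2) and 1.74 under the Ballgown-like test, where Arl6ip5 in AT1 was -1.08 and Cd164 in AT1 -1.69. The log2 ratio of the summed ARF level, with a library left out, ran from 0.15 to 0.44 in AT1 (0.24 with all), from -0.36 to -0.06 in AT10 (-0.27) and from -0.36 to -0.05 in AT01 (-0.25), the upper ends without FCA replicate 2.

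Over all records, 20 were called in AT10, 11 in AT1, 11 in AT01 and 5 over the 4 groups. The counts for the 3 doses were 7, 6 and 7 at a mean of at least 10 FPKM, 2, 3 and 5 in 1 fit over 12 libraries, and 1, 0 and 1 with the Ballgown-like test. At an unadjusted p under 0.05 the Ballgown-like test gave 789 in AT1. With a library left out they ran from 19 to 35 in AT10 (35 without AT10 replicate 3), 9 to 33 in AT1 (33 without AT1 replicate 2), 13 to 30 in AT01 (30 without AT01 replicate 2) and 8 to 21 over the 4 groups (21 without FCA replicate 1). Partner genes called ran from 0 to 1 in AT01, the 1 being Arl6ip1 without AT01 replicate 1. The cause was not tested.

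The study calls the replicate numbers repeated sets, without saying what the libraries of a set shared. The values did not show a pairing: deviations of same-numbered libraries correlated at -0.11 to 0.09, 0 of 18 pairs over 0.1, and 4 of 12 libraries correlated best with their own number. With the replicate block the counts were 1, 0 and 2 for the 3 doses (1125 at an unadjusted p under 0.05 in AT1) and 4 over the 4 groups, and the block called 0 partner genes.

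With 3 libraries a group and no read counts, single libraries such as FCA replicate 2 for Arf4 carry much of each difference. In AT1 the interval of Arf2 left room for a 2-fold rise, and that of Arf1 for a 2-fold fall.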
